A study of Drosophila melanogaster with 2 samples.

Results

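The ionotropic receptor genes of Drosophila melanogaster were examined for regions pulled down with an amos-eGFP fusion protein. The members are the protein-coding genes whose Ensembl symbol is Ir followed by digits and a letter, 60 of 13945 protein-coding genes on the main chromosome arms. Of these, 17 are known from the adult antenna and 43 are not on that list. They lie on arms 2L (4 genes), 2R (18), 3L (13), 3R (14) and X (11).

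The chromatin came from whole embryos aged 0 to 18 hours of the transgenic strain amos-GFP, sonicated to 200 to 800 bp, and the fusion was immunoprecipitated through its GFP part with anti-GFP (the antibody entry of the labels reads amos). There is 1 group, with 2 samples labelled biological replicates 1 and 2, and no second group was analysed here. The labels do not say which promoter drives the transgene or whether the animals keep their own amos. The embryos were taken whole, so the bound regions of all cell types are pooled, and binding in fewer cells cannot be told apart from weaker binding per cell. The lists hold no marker levels against which the cell types in the samples could be checked.

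Ionotropic receptors descend from the ionotropic glutamate receptors of synapses. They form cation channels in sensory neurons from a tuning receptor and a co-receptor (Ir8a, Ir25a, Ir76b or Ir93a), and detect odours, tastes, temperature and humidity. Amos, a proneural transcription factor of the basic helix-loop-helix kind, starts the precursors of basiconic and trichoid olfactory sensilla, whose neurons mostly use odorant receptors. The coeloconic sensilla, where many antennal ionotropic receptors are used, depend on the related protein Atonal.

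The values are peak summits, the points of highest signal in the authors' lists. On the main arms there were 5823 peaks in the optimal list (called on pooled reads), 3115 in the conservative list, 6213 in the replicate 1 list and 2880 in the replicate 2 list. A gene was counted as having a summit at its own start site where a summit lay within 500 bp of the start of any of its transcripts. Otherwise it was counted as having a neighbour summit where a summit in the gene or within 5 kb of it was nearer to the start site of another gene. The signal of a peak is the value given by the authors' peak caller, and it was compared only within a list.

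The sequences below lie at summits beside 5 of the members and are shown because they carry the summits at Ir76a, Ir31a and 3 of the co-receptors, each close to the start site of another gene. The stretches at tank and CG14187 lie on the far side of those genes from the receptor. Each is the plus strand of dm6 from RefSeq, 5′ to 3′, taken from the 50 bp to each side of the summit and cut where it would run more than 24 bases into an exon. Capitals mark CGATAG (bound by BEAF-32, an insulator protein), TATCGATA (the element bound by DREF) and E-boxes (CANNTG, the kind of site bound by proteins such as Amos), on either strand. CGATAG and TATCGATA can overlap. The stretch at Ir76a is chr3L:19801276-19801353, with its summit in an intron of Ir76a, and it begins in an exon of CG14102 and ends in an exon of Ir76a. The stretch between Ir31a and LSm-4 is chr2L:10405180-10405270, with an intergenic summit. The stretches beside Ir25a are chr2L:4830670-4830762 and chr2L:4837976-4838076, and those beside Ir8a and Ir76b are chrX:9232363-9232463 and chr3L:20113189-20113289, all with intergenic summits.
Ir76a start site: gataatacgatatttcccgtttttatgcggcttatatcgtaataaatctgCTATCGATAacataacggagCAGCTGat
Ir31a and LSm-4: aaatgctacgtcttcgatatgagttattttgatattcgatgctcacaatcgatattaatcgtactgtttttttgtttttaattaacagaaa
Ir25a, downstream side, at Fnta: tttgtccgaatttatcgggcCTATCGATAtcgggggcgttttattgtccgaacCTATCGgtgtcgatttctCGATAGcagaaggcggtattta
Ir25a, upstream side, at tank: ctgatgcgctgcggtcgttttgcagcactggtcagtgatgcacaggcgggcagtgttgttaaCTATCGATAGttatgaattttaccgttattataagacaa
Ir8a, downstream side, at CG12121: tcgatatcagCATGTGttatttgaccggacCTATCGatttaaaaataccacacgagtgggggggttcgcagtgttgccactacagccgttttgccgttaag
Ir76b, upstream side, at CG14187: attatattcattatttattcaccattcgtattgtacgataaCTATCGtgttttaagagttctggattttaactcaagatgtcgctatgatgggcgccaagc

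Few receptor genes had a summit at their own start site. In the optimal list 4 of 60 did (6.67%), against 37.3% of all protein-coding genes: Ir31a, Ir60b, Ir60e and Ir76a. A neighbour summit alone was found at 14 (23.3%, all genes 25.3%), and 2 (3.33%, all genes 2.04%) had a summit within 5 kb that lay nearest to their own start site but more than 500 bp from it. The other 40 (66.7%, all genes 35.3%) had no summit within 5 kb. Receptors thus lay below all genes at the own start site and above them among genes with no summit. The shares with a neighbour summit alone were near each other but have unlike bases. That class leaves out genes with an own start site summit, which are 6.67% of receptors and 37.3% of all genes. No test was made over genes, which are not replicates.

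In each list receptors stood below all genes at the own start site and above them among genes with no summit. The own start site count was 4 in replicate 1 (6.67%, all genes 39.6%) and 3 in replicate 2 (5%, all genes 20.6%). Over the replicate lists the share averaged 5.83% ± 1.18 for receptors and 30.1% ± 13.4 for all genes (SD, n = 2). The conservative list had 3 (5%, all genes 23.8%). The 3 members in the conservative and replicate 2 lists were Ir60b, Ir60e and Ir76a in both. A neighbour summit alone was found at 15 members in replicate 1 (25%, all genes 24.9%) and 9 in replicate 2 (15%, all genes 22.5%), and 8 members were in both counts. No summit within 5 kb was found for 40 members in replicate 1 (66.7%, all genes 34%) and 47 in replicate 2 (78.3%, all genes 54.8%). Of these, 38 lacked a summit in both replicates. The overlap between replicates was not counted for all genes, so neither this 38 nor the 8 above is read as a trait of receptors. In the conservative list 11 members had a neighbour summit alone (18.3%, all genes 22.7%) and 45 no summit (75%, all genes 52%). A summit nearest to the member but over 500 bp from its start was the class of 1 member each in the conservative and replicate 1 lists (1.67%, all genes 1.48% in both) and in the replicate 2 list (1.67%, all genes 2.07%).

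**Figure D1:**
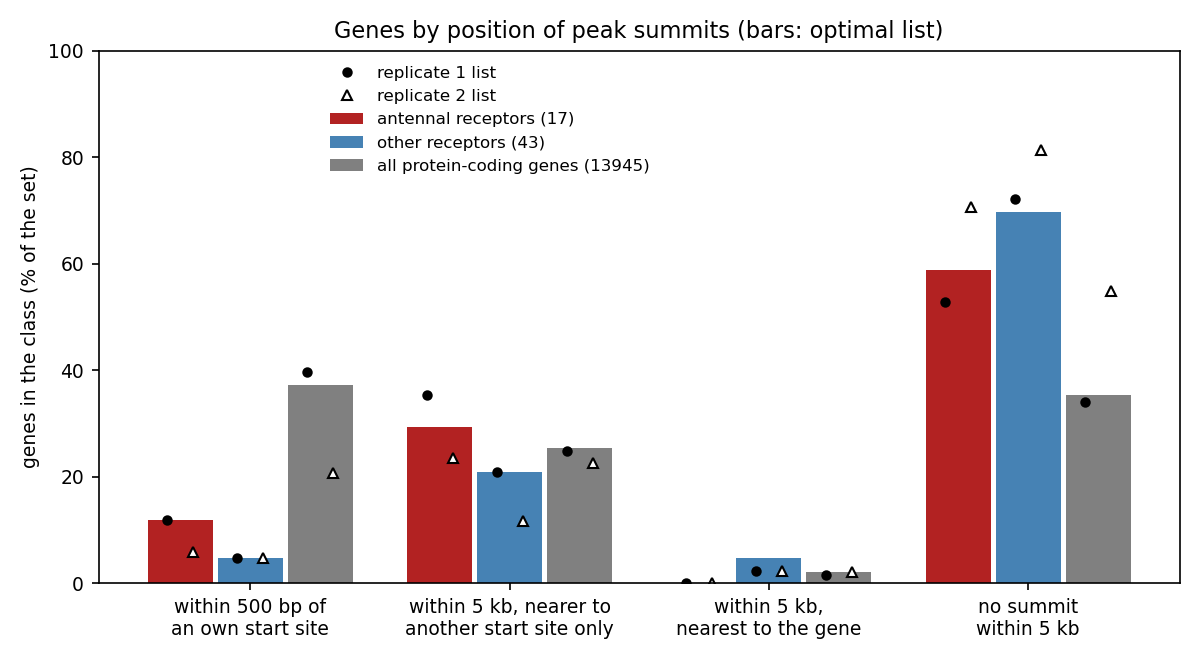
Share of genes (%) in each position class, for antennal receptors, other receptors and all protein-coding genes. Bars are the optimal list, black circles the replicate 1 list and open triangles the replicate 2 list. At the own start site the bars stand at 11.8%, 4.65% and 37.3%, and for genes with no summit at 58.8%, 69.8% and 35.3%.

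Antennal and other receptors each had 2 genes with a summit at the own start site. They were 2 of 17 antennal genes (11.8%, Ir31a and Ir76a) and 2 of 43 other receptors (4.65%, Ir60b and Ir60e). In the replicate lists it was 11.8% and 5.88% for antennal genes and 4.65% in both lists for other receptors, or 8.82% ± 4.16 and 4.65% ± 0 (SD, n = 2). The replicate 2 and conservative lists each held a single antennal gene with such a summit, Ir76a. Neighbour summits alone were found at 5 antennal genes (29.4%) and 9 other receptors (20.9%), with 25.3% of all genes between them. In replicate 1 this share was 35.3% of antennal and 20.9% of other receptors (all genes 24.9%). In replicate 2 it was 23.5% of antennal and 11.6% of other receptors (all genes 22.5%). The means were 29.4% ± 8.32 for antennal and 16.3% ± 6.58 for other receptors, and the difference was not tested. Most antennal genes with a neighbour summit alone were co-receptors, 4 of 5 in the optimal list, 4 of 6 in replicate 1 and 3 of 4 in replicate 2. No summit within 5 kb was found for 10 antennal genes (58.8%) and 30 other receptors (69.8%), against 35.3% of all genes. The antennal genes without one include Ir84a and Ir92a, which detect phenylacetaldehyde and ammonia, and Ir40a and Ir68a of the humidity sensors, all named after their values were seen.

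Each of the 4 summits at an own start site lay in the short space between head-to-head genes, where the receptor gene and another gene start on opposite strands. At 3 of them the other gene's start site was the nearer, so that Ir76a alone had a summit nearest to its own start site (1.67%, all genes 29.2%). It was also the single such member in the replicate 1 list (all genes 31.6%), the replicate 2 list (14.9%) and the conservative list (17.7%). Ir76a (FBgn0260874, 3L plus strand) encodes an antennal receptor for amines. Its summit was 4 bp from an Ir76a start site and 35 bp from the start of CG14102, and these start sites are 39 bp apart. The peak (3L 19801252 to 19801405) had a signal of 218 and rank 1885 of 5823 in the optimal list, with 169 in the replicate 1 list and 51 in the replicate 2 list. Ir76a has 3 annotated start sites, and the summit lies in an intron of a transcript that begins at 19799278. The sequence at this summit held CGATAG, TATCGATA and the E-box CAGCTG, as printed above.

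Ir31a (FBgn0051718, 2L plus strand), an antennal receptor tuned to an organic acid, had the highest signal of these summits, 424 (rank 972). The summit was 345 bp from the Ir31a start site and 17 bp from the shared start site of LSm-4, whose product acts in RNA processing, and CG17768. The replicate 1 list gave this peak 332, and the replicate 2 list held none. Replicate 2 also had no ranked region within 500 bp of the Ir31a start. The value at Ir31a thus rests on replicate 1.

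The other members with an own start site summit, Ir60b and Ir60e, belong to 1 cluster on 2R. Ir60b (FBgn0259185, plus strand), which acts in a taste neuron of the pharynx, had a summit 295 bp from its start site and 70 bp from that of Letm1, a mitochondrial membrane protein gene, with a signal of 249.9 (rank 1694). Its signal was 86.4 in the replicate 1 list and 158 in the replicate 2 list. Ir60e (FBgn0035019, minus strand) had a summit 300 bp from its start site and 22 bp from that of CG13585, with a signal of 259 (rank 1639). Its signal was 184 in the replicate 1 list and 69 in the replicate 2 list. Both summits were intergenic, and both held an E-box but neither CGATAG nor TATCGATA within 50 bp. The 4 members lie between 4 and 345 bp from their summits, and the next nearest, Ir47a, was 1658 bp from its summit.

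**Figure D2:**
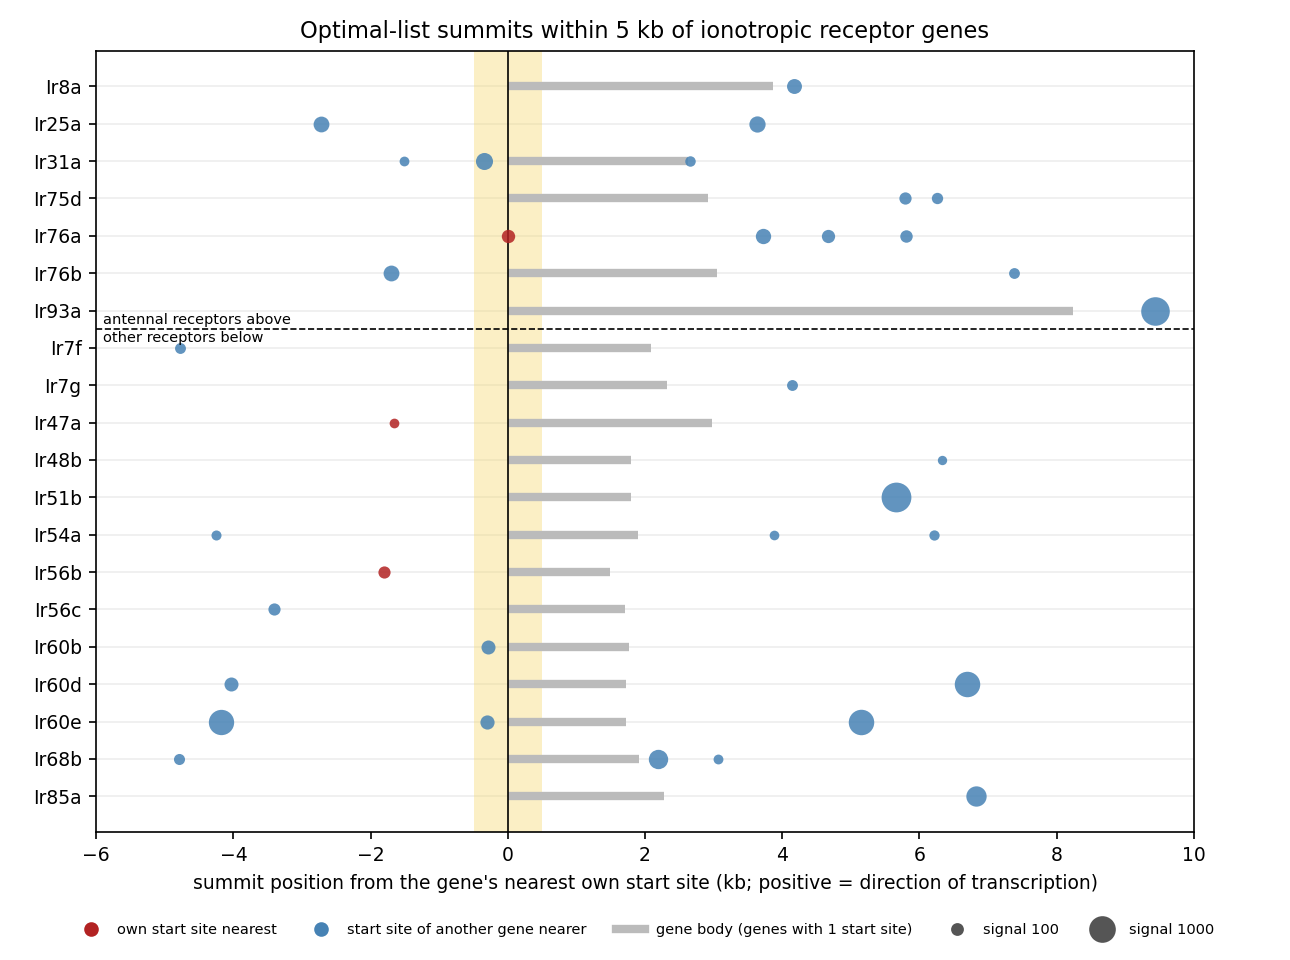
Position of each optimal-list summit (kb) from the nearest start site of the receptor gene, 1 row per gene with a summit within 5 kb, with positive values in the direction of transcription. Dot area rises with signal, red dots have the gene's own start site nearest, blue dots have the start site of another gene nearer, and the yellow band marks 500 bp to each side. The band holds 4 summits, at Ir31a, Ir76a, Ir60b and Ir60e.

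The start site summits went with closely spaced start sites. Only 5 of 60 receptor genes (8.33%, all genes 30.9%) had the start site of another protein-coding gene within 500 bp of their own. They were 3 of 17 antennal genes (17.6%) and 2 of 43 other receptors (4.65%). Of these 5, 4 had a summit at the own start site (80%), against 62.8% of all genes with such a close start site. The fifth is Ir75c, 499 bp from a start site of the GABA receptor subunit gene Grd, named after its values were seen. Of the 55 receptor genes with no other start site so close, 0 had a summit at their own, against 25.9% of all such genes. The counts were 4 of 5 and 0 of 55 in replicate 1 (all genes 63.9% and 28.7%), 3 of 5 and 0 of 55 in replicate 2 (39.3% and 12.2%), and 3 of 5 and 0 of 55 in the conservative list (44.6% and 14.5%). The median distance to the nearest other start site was 2737 bp for receptor genes (3779 bp for antennal, 2381 bp for other receptors) and 1375 bp for all genes. Median gene length was 1908 bp for receptors and 2166 bp for all genes.

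The genes beside the receptors more often had a summit at their own start site than the receptors did. In the optimal list, 35 of 61 protein-coding genes that start within a receptor gene or within 5 kb of it had one (57.4%), against 6.67% of the receptors themselves and 37.3% of all genes. The share of neighbouring genes was 59% in replicate 1, 37.7% in replicate 2 and 42.6% in the conservative list, and the receptors were below it in each. These neighbours were chosen by position alone.

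**Figure D3:**
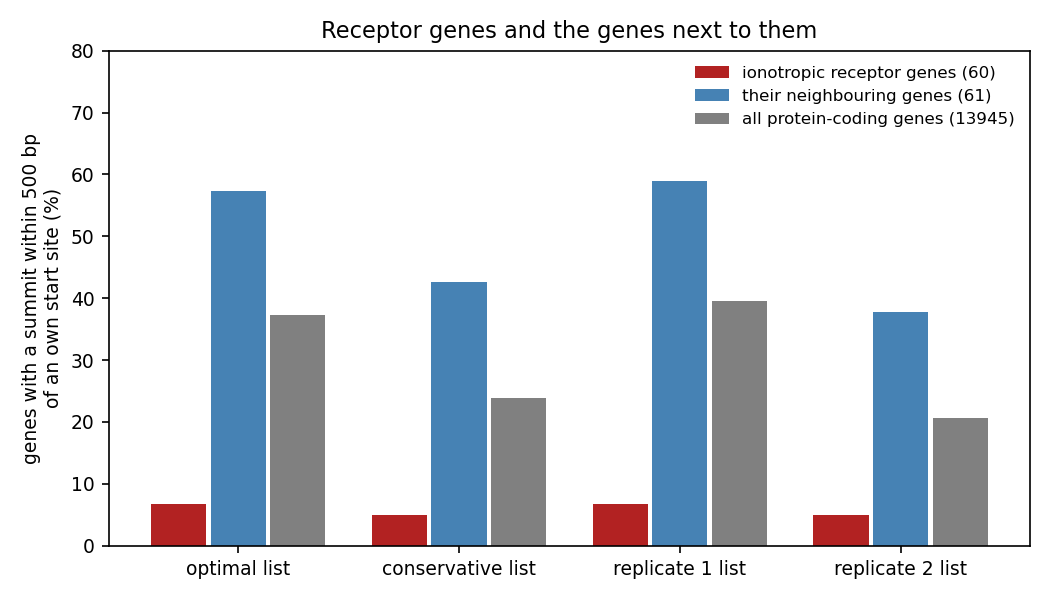
Share of genes (%) with a summit within 500 bp of an own start site, for the receptor genes, the genes that start within 5 kb of them and all protein-coding genes, in 4 peak lists. Neighbouring genes stand at 57.4%, 42.6%, 59% and 37.7% from left to right, and receptors at 6.67% or 5%.

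The optimal list held 31 summits within 5 kb of a receptor gene. Of these, 28 were nearest to a start site of a gene outside the family and 26 of those 28 were within 500 bp of it, at a median of 29 bp over the 28. Their 26 nearest genes include genes for ribosomal proteins (RpS30 and RpS27A), a chaperonin subunit (CCT7), a splicing factor (Prp6) and a nuclear import receptor (Kap-alpha1), of which RpS27A, Prp6 and Kap-alpha1 are named after their values were seen. Neighbour summits were downstream of the receptor in 20 gene and summit pairs, upstream in 9 and inside the gene in 0. Signal ran from 48.8 to 1524 with a median of 212, against 120.1 over the whole list, and 20 of the 31 were in the upper 50% of the list by signal (50% of all summits). A q value of 0.05 or less was given for 26 of the 31, while 1375 of all 5823 peaks in the optimal list had one above 0.05. Of the 31 peaks, 27 overlapped a peak in the replicate 1 list (all optimal peaks 82%), 17 one in the replicate 2 list (46.8%) and 15 both (39.7%). Of the 12 found in the replicate 1 list alone, 7 had a ranked region in replicate 2 below the threshold and 5 had none.

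All 4 co-receptor genes had a neighbour summit alone in the optimal, conservative and replicate 1 lists (all genes 25.3% in the optimal list). None had a summit at its own start site in these lists (all genes 37.3% in the optimal list). In replicate 2, 3 of 4 had a neighbour summit. Ir93a (FBgn0259215, 3R), the co-receptor for temperature and humidity, was beside a summit 1 bp from a start of RpS30, a ribosomal protein gene, and 9428 bp from its own, with a signal of 1394 (rank 109), 905 in replicate 1 and 493 in replicate 2. Ir25a (FBgn0031634, 2L), the most widely used co-receptor, had a summit on each side. The downstream one, 19 bp from the start of the farnesyltransferase subunit gene Fnta and 3631 bp from that of Ir25a, had a signal of 374 and was 343 in replicate 1. Replicate 2 had only a ranked region there, with a signal of 33.9 and a global IDR (irreproducible discovery rate) of 0.889. The upstream one, 27 bp from the start of tank and 2726 bp from that of Ir25a, had a signal of 349, with 216 in replicate 1 and 126 in replicate 2.

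Ir76b (FBgn0036937, 3L), a co-receptor in taste and amine sensing, had an upstream summit 392 bp from the start of CG14187 and 1705 bp from its own, with a signal of 349.6, 221 in replicate 1 and 132 in replicate 2. A second one beside CG14186 (104) was in the replicate 2 list alone of the replicates, at 88.5. Ir8a (FBgn0052704, X), the co-receptor for acids, had a downstream summit 35 bp from the start of CG12121 and 4172 bp from its own, with a signal of 299 and 254 in replicate 1. In replicate 2 the region was ranked with a signal of 41.3 and a global IDR of 0.752, above the threshold of 0.01. The summits nearest to the co-receptors thus sat at the start sites of other genes, and those of Ir8a and of Ir25a at Fnta were listed in replicate 1 and not in replicate 2.

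Among the other members, the strongest neighbour summits were also at start sites of genes outside the family. The highest was beside Ir51b, 19 bp from the start of row, with a signal of 1524 (rank 85), 1147 in replicate 1 and 348 in replicate 2. Ir60d and Ir60e shared a summit at CG4612 with a signal of 1084 (700.1 in replicate 1 and 391 in replicate 2), and Ir60e had a further one at CG4622 with 1068 (761 in replicate 1 and 309 in replicate 2). Ir85a was 6823 bp from a summit at CCT7 with a signal of 649 (429 in replicate 1 and 214 in replicate 2). Ir68b was 2194 bp from a summit at yps, the gene of a Y-box protein, with a signal of 579.8 (401 in replicate 1 and 193 in replicate 2). Each of these was in both replicate lists. The summits of Ir56b (162, in the replicate 2 list and not in that of replicate 1) and Ir47a (62.4, the reverse) were nearest to the receptor but 1805 bp and 1658 bp from its start, and the one near Ir47a lay in an intron of SLO2 with a q value of 0.078. Both are named after their values were seen.

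Receptor genes in tandem clusters and those that lie alone both mostly had no summit in the optimal list. With members within 20 kb of each other joined, 29 of 60 genes fell into 9 clusters. Of these 29, 22 had no summit within 5 kb (75.9%), as had 18 of the 31 members that lie alone (58.1%), against 35.3% of all genes. In the optimal list 6 of the 9 clusters had no summit: Ir52a to Ir52d, which include taste receptors linked to courtship, Ir67b and Ir67c, the antennal genes Ir75a to Ir75c, which detect short acids, and the 3 clusters of Ir94 genes. In the replicate 1 list Ir52d had a neighbour summit at Pgant1 (signal 53.9), named after its values were seen. The Ir7b to Ir7g cluster had 2 members with a neighbour summit, Ir7f and Ir7g, which share 1 at Acat1 (signal 107), and 4 with none. In the Ir56b to Ir56d cluster, Ir56b and Ir56c share the summit upstream of Ir56b, and Ir56d, a receptor for fatty acids, had none. The Ir60b, Ir60d and Ir60e cluster was the one with own start site summits, described above.

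In the ranked lists the median receptor start site lay below the 50th percentile of all genes. These lists hold regions of any reproducibility. The strongest region within 500 bp of an own start site was taken for each gene and given a percentile among all protein-coding genes. That scale includes genes whose regions pass the threshold, so the percentiles are not separate from the counts above. Regions below the threshold were not compared on their own. In the pooled ranked list 44 of 60 receptors had a region (73.3%, all genes 82.2%), the median percentile was 24.1, and 4 receptors were above the 50th, Ir31a (90.4), Ir60e (85), Ir60b (84.6) and Ir76a (83.1). These were also the 4 with a global IDR of 0.01 or less (all genes 37.9%). The thresholded lists are cut on the same measure, so this match repeats the counts above. The next were Ir100a (49.6, signal 33.1) and Ir93a (46.3, signal 29.6). The median was 31.2 for antennal and 23.4 for other receptors, and the co-receptors stood at 46.3 (Ir93a), 46.2 (Ir8a), 44.8 (Ir76b) and 31.2 (Ir25a).

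The replicates differed in these weak regions. Replicate 1 had a region at 15 of 60 receptor start sites (25%, all genes 74.4%), and replicate 2 at 41 (68.3%, all genes 62.9%). The ranked lists held 74213 regions in replicate 1 and 99809 in replicate 2. The rise was not particular to this family. Shares in replicates 1 and 2 were 25.4% and 61% for odorant, 40% and 70% for gustatory, and 53.3% and 73.3% for glutamate receptor genes. The 14 genes of olfactory neurons went the other way, 78.6% and 71.4%. The median percentile of the ionotropic receptors was 12.8 in replicate 1, the value of a gene with no region, and it was 44.4 in replicate 2. The medians averaged 28.6 ± 22.4 (SD, n = 2). In replicate 1, 7 of 17 antennal and 8 of 43 other receptors had a region, and in replicate 2, 14 of 17 antennal and 27 of 43 other receptors. All 4 co-receptors had one in both. A global IDR of 0.01 or less was reached by 4 receptors in replicate 1 (all genes 40.1%) and 3 in replicate 2 (all genes 21%). These repeat the own start site counts of those replicates' thresholded lists, which are cut on the same measure. The receptor median thus lay at the bottom of the scale in replicate 1 and closer to the 50th percentile in replicate 2. In the ranked list made from both replicates, 37 receptors had a region (61.7%, all genes 66.6%), 3 of them with a global IDR of 0.01 or less (all genes 24.2%), and the median percentile was 37.3.

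**Figure D4:**
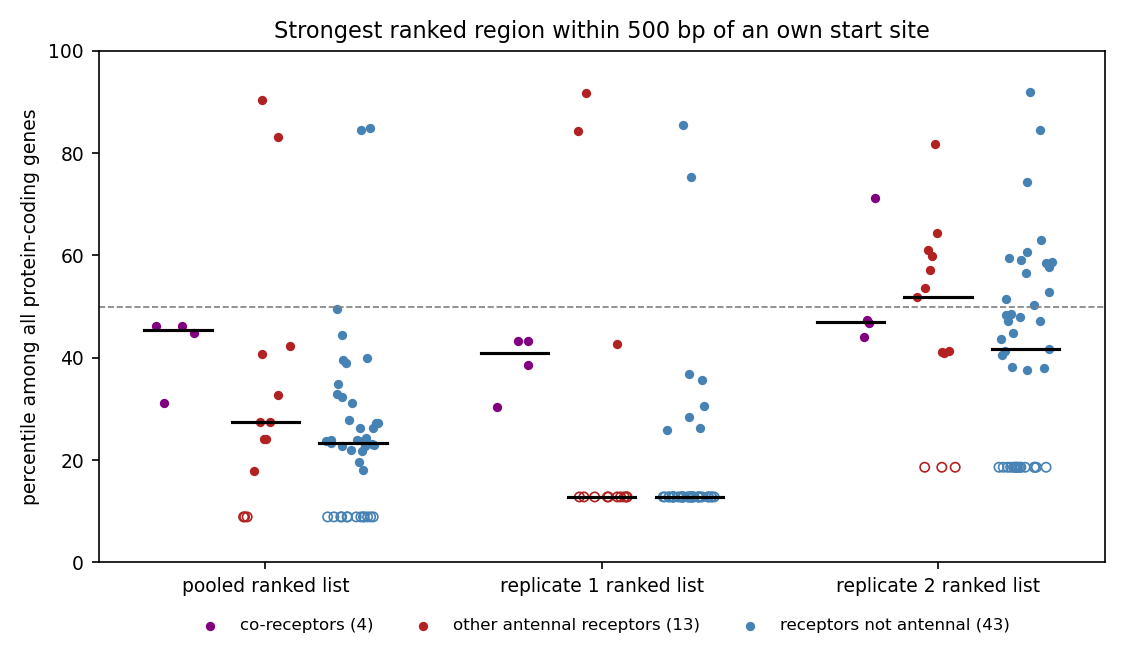
Percentile among all protein-coding genes of the strongest ranked region within 500 bp of an own start site, for co-receptors, other antennal receptors and receptors not on the antennal list, in the pooled list and each replicate's list. Dots are genes (open where there is no region), black bars are medians and the dashed line is the 50th percentile. The receptor median over all 60 genes is 24.1 in the pooled list, 12.8 in replicate 1 and 44.4 in replicate 2.

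The motifs named above were counted on both strands at the summits and in the promoters of the receptors. Of the 28 summits nearest to a gene outside the family, 10 held CGATAG within 50 bp (35.7%, all summits 25.7%), 6 held TATCGATA (21.4%, all summits 13.7%), 14 held an E-box (50%, all summits 40.4%) and 2 held CAGCTG (7.14%, all summits 8.64%). Within 100 bp the E-box share was below that of all summits, at 17 (60.7%, all summits 62.9%). CGATAG was then in 11 (39.3%, all summits 30.7%), TATCGATA in 7 (25%, 16.7%) and CAGCTG in 2 (7.14%, 14.9%). In the receptor promoters, from 250 bases before to 50 after the most upstream start site, CGATAG was in 8 of 60 (13.3%, all promoters 19.5%) and TATCGATA in 0 (all promoters 9.36%). An E-box of any kind was in 50 (83.3%, all promoters 77.2%) and CAGCTG in 6 (10%, all promoters 17.7%). An E-box was in the promoters of 16 of 17 antennal and 34 of 43 other receptors. The TATCGATA at the Ir76a summit lies outside that gene's promoter window, which is set at its most upstream start site. A match is a run of letters and not a measured site.

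Other chemoreceptor families had few start site summits too. Of 59 odorant receptor genes, many of which are used in the sensilla that need Amos, 0 had a summit at the own start site in each of the 4 thresholded lists. A neighbour summit alone was found at 12 in the optimal list (20.3%, all genes 25.3%). Of 60 gustatory receptor genes, 1 had an own start site summit in the optimal list (1.67%, all genes 37.3%) and 27 a neighbour summit alone (45%, all genes 25.3%). In the other lists the gustatory neighbour share was nearer to that of all genes. It was 28.3% in replicate 1 (all genes 24.9%), 23.3% in replicate 2 (22.5%) and 26.7% in the conservative list (22.7%). Of 15 genes for ionotropic glutamate receptors and the auxiliary subunit Neto, 0 had an own start site summit, 4 a neighbour summit alone (26.7%) and 11 none (73.3%, all genes 35.3%). A list of 14 genes of olfactory neurons held mostly regulators, and also Orco and Amt. Of these 14, 3 had a summit at their own start site (21.4%, all genes 37.3%). They were led by Xbp1 with a signal of 607, then svp with 249 and da, which encodes the Amos partner Daughterless, with 202. Of these 3, Xbp1 was in both replicate lists, while da and svp were in that of replicate 1 alone. Amos itself had a neighbour summit in the optimal list and an own start site summit in the replicate 2 list.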

How the data were processed

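ChIP-seq peak lists from 2 biological replicates of amos-GFP embryos were used as the authors deposited them. The lists are on dm6, and the peak calls used a control alignment, per the text files deposited with the samples. Which aligner and which peak caller were run is not given in the sources used here. Peak signal, as deposited, is never negative and can be compared only within a list. The deposited q value is given as −log10, and the deposited global irreproducible discovery rate of the ranked lists as −log10. The 8 lists are 4 thresholded and 4 ranked ones. Of the ranked lists, 32 per-input columns were not used. No read counts are in the lists, so depth is unknown and no interval is given. Whether the replicates came from separate collections is not stated beyond the label.

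Start sites came from Ensembl release 115 (genome Release 6, 6 main arms), and sequences from RefSeq Release 6, with python 3.11.15, pandas 2.3.3, numpy 2.4.6 and biopython 1.88. The sorting of genes into classes was checked on a small made-up set with known answers. A gene with no ranked region shared the lowest percentile. Of the 4 lists written by hand (co-receptors, antennal receptors, glutamate receptors, olfactory neuron genes), 1 symbol was not found and 4 were matched through older names. Members and lists were chosen with earlier results of these data known. Named genes are members with an own start site summit in any thresholded list, the co-receptors, the 6 members with the strongest neighbour summit with the gene nearest to it, the 6 with the highest ranked region at their own start site, clusters and listed genes. No test was made: the design has 1 group. Alternatives were other lists, windows, distances, start sites and signal or q value limits.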

Additional observations from a re-analysis of the deposited data

How the results depend on the processing

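The own start site count of 4 fell to 1 with a window of 250 bp, where the antennal count was 1 and that of other receptors 0, since Ir31a, Ir60b and Ir60e lie between 295 and 345 bp from their summits. The antennal count, 2 as reported, was also 1 in the conservative list and 1 with the most upstream start site of each gene alone, where the count of members with their own start site nearest was 0 in place of 1. That setting drops the Ir76a start site at its summit. Neighbour summits alone fell to 7 members, against 14 as reported, with a distance of 2 kb. Leaving out each replicate gave 3 to 4 own start site members, 1 to 2 antennal ones, 9 to 15 with a neighbour summit alone, 40 to 47 with none, and 37.7% to 59% of neighbouring genes with an own summit (57.4% as reported). The other settings moved no count by over 1.5 times. The percentile median, 24.1 as reported, was 15.5 with 250 bp. Counts of members nearest to their own start site and shares of neighbouring genes were added after seeing the data. Depth is unknown. No paired analysis was possible because there is 1 group.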

Other observations

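The 6 genes named Ir that Ensembl annotates as pseudogenes are outside the family as counted above. None of the 6 had a summit at its own start site in the optimal list, and 3 had a neighbour summit. Ir60f was beside the CG4612 summit (signal 1084) that it shares with Ir60d and Ir60e, Ir60c was beside the Letm1 summit (249.9) that it shares with Ir60b, and Ir47b was beside the summit near Ir47a (62.4). Ir48a had a summit 4198 bp from its start (48.8), nearer to it than to any protein-coding start site. Ir51a and Ir56e had no summit within 5 kb.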
